A study of Mus musculus with 12 samples.

Results

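The peaks described here carried trimethylated lysine 4 of histone H3 (H3K4me3) in wild type (WT) mouse embryonic fibroblasts (MEFs) and were listed at no overlapping place in lincRNA-p21 knockout (KO) MEFs. Members were chosen by the H3K4me3 peak lists themselves. They are the WT doxorubicin peaks that overlapped, by at least 1 bp, a peak of the WT mock list and no peak of the KO doxorubicin or KO mock list. There were 686 such WT-only peaks, 4.16% of the 16477 peaks of the WT doxorubicin list. The count was 413 when each list was held to the same number of top peaks, 1275 when absence was asked of KO mock alone, and 272 without peaks beside a gap in the KO peak numbers (explained below). Primary MEFs of a hybrid 129/B6 background were lincRNA-p21-/- (KO) or lincRNA-p21+/+ (WT), and each genotype was either given doxorubicin (labelled 0.5 mM, 24 h), which damages DNA, or mock treated. H3K4me3 and trimethylated lysine 27 of histone H3 (H3K27me3) were each profiled by ChIP-seq in KO doxorubicin, KO mock, WT doxorubicin and WT mock cells, with 1 library per mark and condition. There is therefore no replicate error for any value below and no p-value between conditions. How many embryos or cultures stand behind a library is not given in the labels. No input values were used. Coordinates are on mouse build mm9.

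H3K4me3 marks the start sites of active genes and of genes held ready for activation. H3K27me3 is laid down by Polycomb repressive complex 2 at silent genes, among them many regulators of development. Places that carry both marks are called bivalent and are known from stem cells and from lineage-committed cells such as fibroblasts. LincRNA-p21 is a long noncoding RNA that p53 switches on after DNA damage, and the title of the series concerns its effect on Polycomb target genes.

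The deposited lists give each peak a score, which is minus 10 times the base-10 logarithm of the peak caller's p-value. The lowest scores were just above 80, many peaks shared a score of 3100, and the highest reached 3233. Scores are the authors' own values, and read depth is unknown. A place listed in both WT lists is here a WT doxorubicin peak that overlapped a WT mock peak. Of the 15118 such places, 4.54% were in neither KO list, a share that the choice of peaks itself fixes. The opposite set, in both KO lists and neither WT list, held 72 peaks. The lists differ in length, with 15095 peaks in KO doxorubicin, 14326 in KO mock, 16477 in WT doxorubicin and 14897 in WT mock. Peaks found in all 4 H3K4me3 lists numbered 13599.

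WT-only peaks were weaker and narrower than peaks found in all 4 lists. These values come from the lists that chose the peaks and are a description. Their median score was 233 in WT doxorubicin cells (interquartile range 132 to 408) and 143 in WT mock cells (105 to 219). Peaks in all 4 lists had medians of 1912 in WT doxorubicin cells and 1784 in WT mock cells. By score, 622 WT-only peaks (90.7%) were among the weakest 30% of WT doxorubicin peaks, and 25 (3.64%) scored 1000 or more, against 61.7% of the whole list. Their median width was 1024 bp in WT doxorubicin cells and 1142.5 bp in WT mock cells, whereas peaks in all 4 lists had 1921 bp and 2186 bp. Other peaks missing from some lists were weak and narrow too. In WT doxorubicin cells the median score and width were 209.97 and 945 bp for peaks missing in KO mock alone (found in the other 3 lists), 374 and 1202 bp for those missing in KO doxorubicin alone, and 120 and 811 bp for those found in WT doxorubicin alone.

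The name of the group did not hold for every member. For 82 of the 686 peaks, the WT mock peak that they overlapped also overlapped a KO peak. They are called flanks below, since they lay beside an H3K4me3 place that KO cells also had. Their median width was 817 bp in WT doxorubicin cells, whereas the WT mock peak had a median of 3436 bp, and they lay a median of 209.5 bp from the nearest KO peak. The other 604 peaks had a WT mock peak free of any KO peak and are called free-standing below. Free-standing peaks lay a median of 28398 bp from the nearest KO H3K4me3 peak, and 24 of them (3.97%) lay within 1 kb of one. At the border of the definition, the WT-only peak nearest to a KO peak, on chromosome 11 from 51434635 to 51435300, came within 2 bp of one in KO doxorubicin. Its scores were 90.6 in WT doxorubicin cells and 1814 in WT mock cells. The next came within 9 bp of a peak in KO doxorubicin (chr13:12742896-12743500) and within 12 bp of a peak in KO mock (chr7:86417465-86417911). Just outside the definition were peaks that overlapped a KO mock peak by 4 bp at chrX:96330430-96331341 and chrX:91611338-91612088, and by 6 bp at chr2:172764286-172765241. Their WT doxorubicin scores were 205, 152 and 136. Of the 27 WT-only peaks under 100 bp from a KO peak, 24 were such flanks.

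Whether the KO lists may hold unlisted calls at these places was read from their peak numbers. Numbers run in order of position in each list, and 8.44% of them are missing from the KO doxorubicin and 9.56% from the KO mock list. If the missing numbers are peaks that scored under 80, a gap in the numbers shows in which stretch between 2 listed peaks such a peak lay. Of the 602 free-standing peaks with a KO peak on both sides, 250 (41.5%, 95% interval 37.6 to 45.6) lay in a stretch with a missing number in KO doxorubicin and 259 (43.02%, 39.03 to 47.1) in one with a missing number in KO mock. Neither KO list lacked a number around 224 of them (37.2%). Stretches of 50 to 200 kb that held a free-standing peak lacked a number in 38.03% of 213 cases in KO doxorubicin, and stretches of that length without one in 7.90% of 4724. In KO mock the shares were 36.4% of 214 and 8.65% of 4568. Absence from a KO list therefore includes places where a call below the score floor may have been left out, and the gap does not show at which base it lay.

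H3K27me3, which the choice of peaks did not use, was present at more than 50% of WT-only peaks, at similar shares in the 4 conditions. With absence asked of KO mock alone this did not hold: 43.3% then had H3K27me3 in WT doxorubicin cells and 40.1% in all 4 conditions. Of the 686 peaks, 416 (60.6%, 56.9 to 64.3) overlapped an H3K27me3 peak in KO doxorubicin cells and 409 (59.6%, 55.8 to 63.3) in KO mock cells. In WT doxorubicin cells 408 (59.5%, 55.7 to 63.2) did, and in WT mock cells 407 (59.3%, 55.5 to 63.03). Over the whole WT doxorubicin H3K4me3 list the shares were 17.3% for KO doxorubicin, 17.8% for KO mock, 16.3% for WT doxorubicin and 17.6% for WT mock H3K27me3. H3K27me3 in all 4 conditions was found at 389 WT-only peaks (56.7%, 52.9 to 60.5), against 14.5% of the whole list and 9.16% (8.68 to 9.65) of the peaks in all 4 H3K4me3 lists. No H3K27me3 in any condition was found at 255 WT-only peaks (37.2%, 33.5 to 40.9), against 80% of the whole list. The intervals are exact binomial ones and cover counting error over peaks only. The nearest comparable groups differed from each other. Peaks in both WT lists and KO mock but not KO doxorubicin carried H3K27me3 in all 4 conditions in 178 of 244 cases (72.95%, 66.9 to 78.4). Those in both WT lists and KO doxorubicin but not KO mock did in 122 of 589 (20.7%, 17.5 to 24.2). Of the 72 KO-only peaks, 3 did (4.17%, 0.868 to 11.7). The KO-only peaks had a median score of 138 in KO doxorubicin cells, and the WT-only peaks 233 in WT doxorubicin cells. These shares were not matched for score, and the KO-only peaks were not split into flanks and free-standing peaks.

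**Figure D1:**
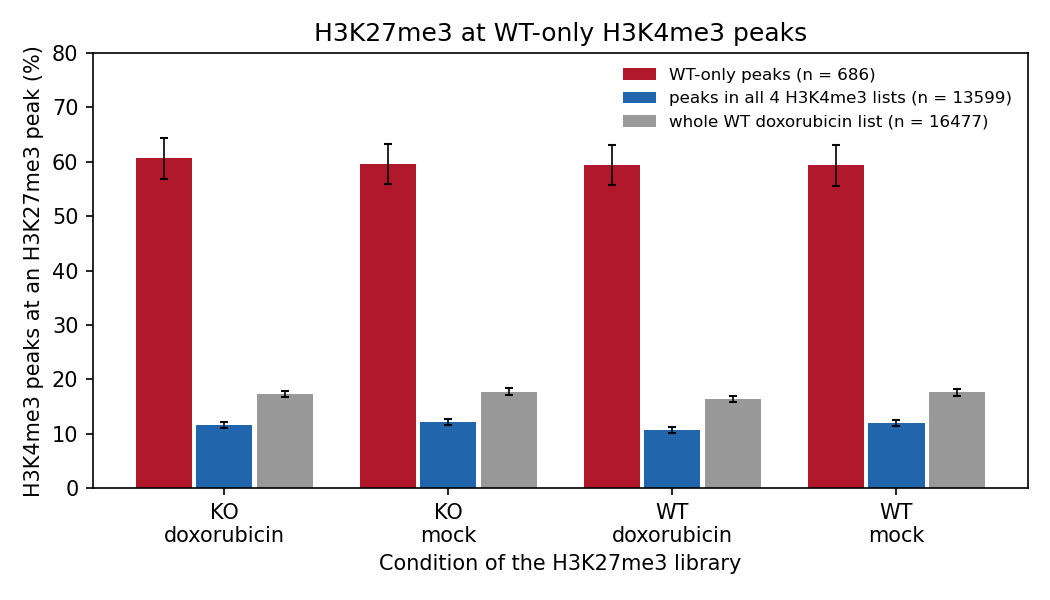
Share of H3K4me3 peaks that overlap an H3K27me3 peak (percent, y axis) in each of the 4 H3K27me3 libraries (x axis), for the WT-only peaks, for peaks in all 4 H3K4me3 lists and for the whole WT doxorubicin list. Bars are single libraries with exact 95% binomial intervals (counting error only), and the WT-only peaks stand at 59.3 to 60.6% in each condition.

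The H3K27me3 share differed within WT-only peaks. Of the free-standing peaks 377 of 604 (62.4%, 58.4 to 66.3) had H3K27me3 in all 4 conditions, whereas 12 of the 82 flanks did (14.6%, 7.80 to 24.2). The share also went up with the H3K4me3 score. It was 24.4% (54 of 221) among WT-only peaks in score decile 1 (the weakest) of all WT doxorubicin peaks, 58.1% (136 of 234) in decile 2, 84.4% (141 of 167) in decile 3 and 89.6% (43 of 48) in decile 4. Peaks of all 4 H3K4me3 lists in the same deciles had 1.47%, 8.62%, 16.9% and 18.8%, lower in each of the 4. WT doxorubicin peaks found in no other list came closer. In decile 1 they had 33.3% (231 of 693, 29.8 to 36.98), against 24.4% (18.9 to 30.6) of the WT-only and 29.2% (50 of 171) of the free-standing peaks, in decile 2 they had 58.3% (155 of 266), and in decile 3 they had 69.7% (23 of 33, 51.3 to 84.4), below the 84.4% of the WT-only peaks.

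**Figure D2:**
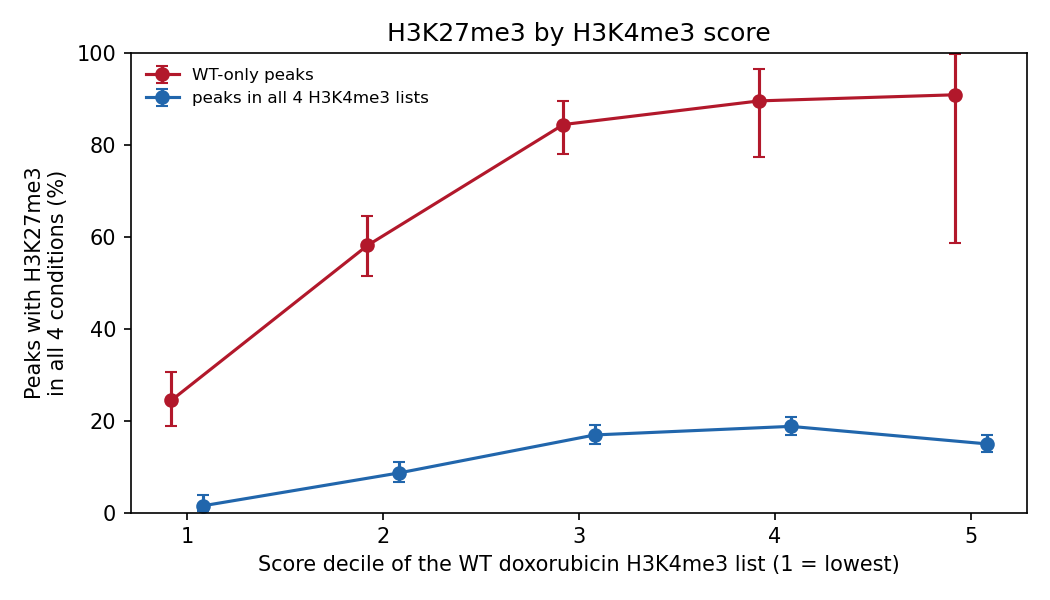
Percent of H3K4me3 peaks with H3K27me3 in all 4 conditions (y axis) in score deciles 1 to 5 of the WT doxorubicin H3K4me3 list (x axis, 1 the weakest), for WT-only peaks and for peaks in all 4 H3K4me3 lists, with exact 95% binomial intervals. The WT-only peaks lie above the other group in each decile, at 24.4% in decile 1 and 89.6% in decile 4.

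H3K27me3 was present in some conditions but not in others at few of these places, at a share near that of the whole list. H3K27me3 in 1 to 3 conditions was found at 42 WT-only peaks (6.12%), against 5.51% of the whole WT doxorubicin list (908 of 16477). All 42 were free-standing. It was found at 0 of the 82 flanks, which allows a share of up to 3.66% (3 counts of 82, a simpler limit than the exact intervals). The counts by genotype that follow were not taken over the whole list, so they are not read as a trait of these peaks. Over the whole list of 16477, H3K27me3 was at 2856 peaks in KO doxorubicin and 2692 in WT doxorubicin cells. In mock-treated cells it was at 2925 in KO and 2904 in WT, so the whole list also had more in KO. In doxorubicin-treated cells 14 WT-only peaks had H3K27me3 in KO but not in WT, and 6 had it in WT but not in KO. In mock-treated cells these numbers were 12 and 10. H3K27me3 in both KO libraries and neither WT library was found at 0 of the 686 peaks, which allows a share of up to 0.437% (3 counts of 686), and in both WT libraries and neither KO library at 1 peak.

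The H3K27me3 peaks at the 389 WT-only peaks marked in all 4 conditions were wide and ranked near the top of their lists. Their median width was 5201 bp in KO doxorubicin, 5544 bp in KO mock, 5407 bp in WT doxorubicin and 6746 bp in WT mock cells, or 3.97, 3.99, 3.67 and 3.35 times the median width of the same list. Their median score was 1185 in KO doxorubicin, 1317 in KO mock, 1033 in WT doxorubicin and 1080 in WT mock cells. The median score percentiles within the lists, in the same order, were 95.3, 94.97, 94.6 and 94.6. The 1245 peaks of all 4 H3K4me3 lists that also carried H3K27me3 throughout had narrower H3K27me3 peaks, with medians of 3697, 4066, 3748 and 4886 bp in that order. Their median score percentiles were 90.6, 90.5, 88.7 and 89.4. The 178 marked peaks that were missing in KO doxorubicin alone had median H3K27me3 widths of 5695, 6262, 6005 and 7323 bp. The 122 missing in KO mock alone had 3582, 3844, 3686 and 5385 bp.

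The larger differences between conditions in H3K27me3 width were those against WT mock, the library with the widest H3K27me3 peaks (a list median of 2015 bp, against 1310 to 1475 bp in the other 3). KO mock was narrower than WT mock at 305 of the 389 peaks and wider at 84, with a median difference of -920 bp. WT doxorubicin was narrower than WT mock at 294 and wider at 95, with a median difference of -815 bp. At the 1245 marked peaks of all 4 H3K4me3 lists the corresponding median differences were -627 bp and -874 bp. KO doxorubicin was narrower than WT doxorubicin at 216 and wider at 173, with a median difference of -110 bp. At the 1245 marked peaks of all 4 lists that median difference was -22 bp (narrower at 631, wider at 613). It was -168 bp at the marked peaks missing in KO mock alone and -183.5 bp at those missing in KO doxorubicin alone. In rank the genotypes were closer. The median difference in score percentile was 0.34 points for KO doxorubicin minus WT doxorubicin (higher at 216, lower at 173) and 0.11 points for KO mock minus WT mock (higher at 208, lower at 181). At the marked peaks of all 4 H3K4me3 lists the percentile was higher in KO doxorubicin than in WT doxorubicin at 785 of 1245, and higher in KO mock than in WT mock at 749. The bases covered by H3K27me3 from 5 kb before to 5 kb after the H3K4me3 peak had medians of 6860 bp in KO doxorubicin, 6671 bp in KO mock, 6912 bp in WT doxorubicin and 7667 bp in WT mock cells.

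**Figure D3:**
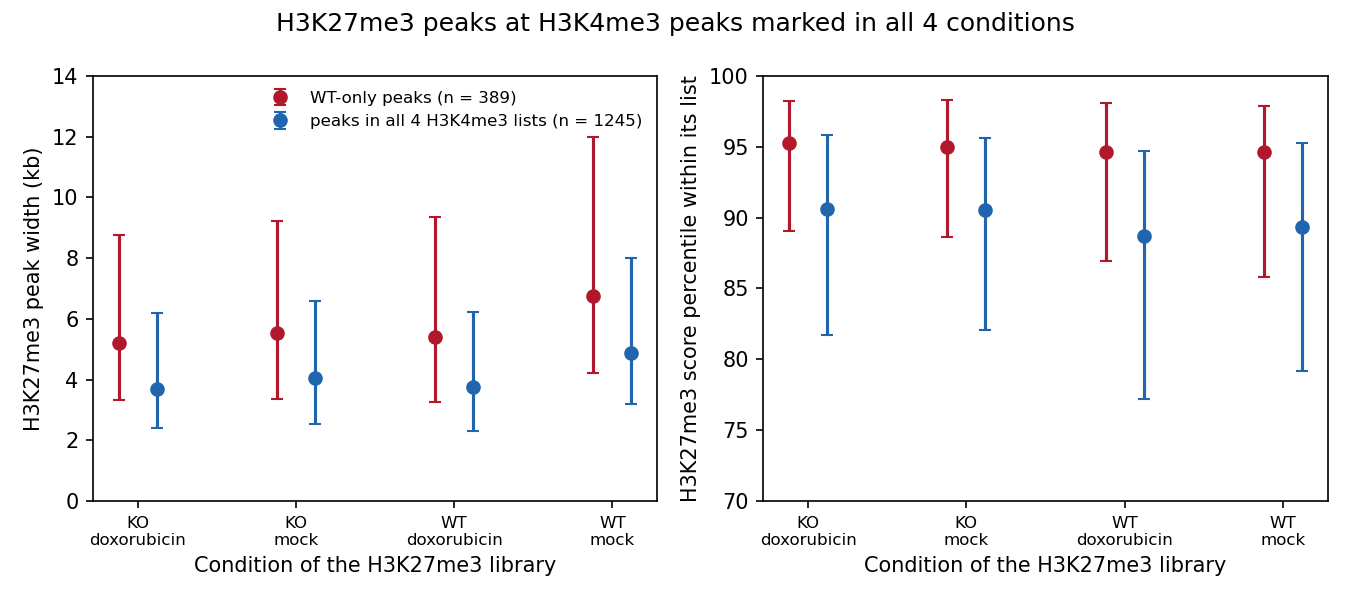
H3K27me3 peak width (kb, left) and score percentile within its own list (right, axis from 70 to 100) in each condition, at WT-only peaks and at peaks of all 4 H3K4me3 lists, each with H3K27me3 in all 4 conditions. Points are medians over peaks and bars the interquartile range, and the WT-only peaks have the larger median width and the higher median percentile in each of the 4 libraries.

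Most WT-only peaks with H3K27me3 lay inside the H3K27me3 peak rather than at its border. Of the 408 with H3K27me3 in WT doxorubicin cells, 342 (83.8%, 79.9 to 87.3) were wholly contained in the H3K27me3 peak, against 42.9% (40.3 to 45.5) of the 1449 peaks of all 4 H3K4me3 lists with H3K27me3 there. On a scale where 0 is the centre of the H3K27me3 peak and 1 its end, their midpoints stood at a median of 0.297, and those of the peaks of all 4 lists at 0.61. This was not particular to WT-only peaks, since 159 of 183 peaks missing in KO doxorubicin alone (86.9%, 81.1 to 91.4) and 90 of 144 missing in KO mock alone (62.5%, 54.1 to 70.4) were also contained. The narrower H3K4me3 peaks and wider H3K27me3 peaks of the WT-only group move with this difference, and their part in it was not tested. The 408 peaks fell in 388 different H3K27me3 peaks, of which 19 held 2 or 3 WT-only peaks. Of the 408, 33 (8.09%) shared their H3K27me3 peak with an H3K4me3 peak found in all 4 lists. That share was not computed for other groups of peaks, so whether it is low is not known.

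The 10 highest-scoring WT-only peaks all carried H3K27me3 in the 4 conditions. The strongest lay on chromosome 5 from 37259022 to 37261890. The nearest KO H3K4me3 peaks were 36774 bp away in KO doxorubicin and 36592 bp away in KO mock cells, and its score was 3100 in WT doxorubicin and 1548 in WT mock cells. No peak number was missing around it in either KO list. H3K27me3 scored 2018 there in KO doxorubicin, 3203 in KO mock, 1924 in WT doxorubicin and 2046 in WT mock cells. The second, on chromosome 4 from 137949583 to 137952822, scored 2379 in WT doxorubicin and 464 in WT mock cells, with the nearest KO peaks 37159 bp away in KO doxorubicin and 37151 bp away in KO mock. Its H3K27me3 peak was 5745 bp wide in KO doxorubicin, 6245 bp in KO mock, 8436 bp in WT doxorubicin and 11116 bp in WT mock cells. The third, on chromosome 2 from 162484906 to 162487478, scored 1811 in WT doxorubicin and 589 in WT mock cells and lay 268704 bp from a KO doxorubicin and 268654 bp from a KO mock H3K4me3 peak. Around these places on chromosomes 4 and 2 both KO lists had unbroken peak numbers. The fourth, on chromosome 6 from 126592773 to 126596089, scored 1705 in WT doxorubicin and 519 in WT mock cells, and both KO lists lacked a number in that stretch. The other 6 scored 1204 to 1654 in WT doxorubicin and 178 to 511 in WT mock cells. In falling order of score they were chr2:146909348-146911576, chr5:140022083-140024119, chr11:96879142-96881287, chr8:9770054-9772271, chr18:42553569-42556177 and chr6:67484037-67485991. Of the 10, 9 were more than 30 kb from a KO peak and 5 had no missing number in either KO list.

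The widest WT-only peak, on chromosome 4 from 135125813 to 135129930, spanned 4118 bp in WT doxorubicin and 1541 bp in WT mock cells and scored 1023 in WT doxorubicin and 288 in WT mock cells. H3K27me3 there scored 652 in KO doxorubicin, 595 in KO mock, 528 in WT doxorubicin and 119 in WT mock cells, lowest in WT mock. Another of the 5 widest, on chromosome 2 from 172374304 to 172377429, scored 1027 in WT doxorubicin and 193 in WT mock cells. Its H3K27me3 peak scored 2678 in KO doxorubicin, 3100 in KO mock, 1620 in WT doxorubicin and 2982 in WT mock cells. The 5 WT-only peaks with the highest H3K27me3 score in WT doxorubicin cells all scored 3100 there, with H3K4me3 scores of 267 to 1072 in WT doxorubicin and 97.7 to 284 in WT mock cells. Among them were the neighbours chr5:33776058-33777950 and chr5:33773263-33774675, which overlapped the same H3K27me3 peak, 11127 bp wide in WT doxorubicin cells.

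Among WT-only peaks without H3K27me3 in any condition, the highest score was on chromosome 5 from 114820547 to 114822456, with 1106 in WT doxorubicin and 475 in WT mock cells. It was followed by chr1:136240179-136241605 (874 in WT doxorubicin, 140 in WT mock), chr5:23979160-23981504 (806 and 206 in those conditions) and chr18:39644376-39647380 (792 and 299.96). That on chromosome 18 had KO peaks at 579 bp (KO doxorubicin) and 517 bp (KO mock), and the strongest had one at 4874 bp (KO doxorubicin). The fifth was chr11:3883091-3885371 (679 in WT doxorubicin, 196 in WT mock). The KO doxorubicin list lacked 2 numbers around the strongest, 1 around that on chromosome 1 and 2 around the fifth. The KO mock list lacked none around any of the 5. The strongest had the same WT mock score and WT mock width (2346 bp) as the neighbouring WT-only peak chr5:114818933-114820445. The 185 free-standing peaks without H3K27me3 had a median distance of 45479 bp to the nearest H3K27me3 peak of any condition, and 40 of them lay within 10 kb of one. Their median H3K4me3 score was 141 in WT doxorubicin and 117 in WT mock cells, whereas free-standing peaks with H3K27me3 throughout had 354 in WT doxorubicin and 141 in WT mock cells.

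The change of H3K4me3 score with doxorubicin was described by rank, because the lists differ in length. Each place listed in both WT lists received a percentile rank in each library, among the same 15118 places. A WT mock peak that overlapped several WT doxorubicin peaks gave its whole score to each of them. WT-only peaks had a median rank of 8.92 in WT doxorubicin and 5.43 in WT mock cells, and 470 of 686 (68.5%, 64.9 to 71.98) ranked higher in WT doxorubicin, against 50.3% of all places. Rank change went with H3K27me3. Free-standing peaks with H3K27me3 in all 4 conditions ranked at a median of 13.9 in WT doxorubicin and 5.34 in WT mock cells. Of these, 331 of 377 ranked higher with doxorubicin (87.8%, 84.1 to 90.9), with a median difference of 7.53 points. Differences of 10 points or more upward were seen at 133, and downward at 0. No fall of that size was possible from WT mock ranks of 0 to 5 (176 peaks) or 5 to 10 (110 peaks). Among the 185 free-standing peaks without H3K27me3, 14 rose and 1 fell by that much, with 120 and 45 in those bands. Free-standing peaks without H3K27me3 ranked at a median of 4.12 in WT doxorubicin and 3.35 in WT mock cells, and 106 of 185 ranked higher with doxorubicin (57.3%, 49.8 to 64.5), with a median difference of 0.89 points.

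A higher rank with doxorubicin was not particular to WT-only peaks. Peaks of all 4 H3K4me3 lists with H3K27me3 throughout ranked higher in WT doxorubicin in 1092 of 1245 cases (87.7%, 85.8 to 89.5), with a median difference of 9.63 points. Marked peaks missing in KO mock alone did so in 104 of 122 (85.2%, 77.7 to 91.02), and those missing in KO doxorubicin alone in 153 of 178 (85.96%, 79.97 to 90.7). Because a change of rank can depend on the starting rank, the comparison was repeated within bands of WT mock rank. Between ranks 5 and 10 in WT mock, free-standing peaks with H3K27me3 had a median difference of 7.71 points (n = 110), and peaks of all 4 lists with H3K27me3 7.85 points (n = 64). In the same band free-standing peaks without H3K27me3 had 0.26 points (n = 45), and peaks of all 4 lists without it 1.55 points (n = 237). Between ranks 10 and 20 the 4 groups had 7.17 (n = 80), 7.02 (n = 303), -5.70 (n = 17) and -0.04 points (n = 736). Between ranks 0 and 5 they had 7.49 (n = 176), 10.9 (n = 20), 1.21 (n = 120) and 2.42 points (n = 150). In the same order of groups, the shares that ranked higher were 89.2%, 95%, 65% and 79.3% between ranks 0 and 5. They were 84.5%, 89.1%, 51.1% and 62.4% between ranks 5 and 10, and 87.5%, 86.1%, 23.5% and 49.6% between ranks 10 and 20. In each band, free-standing peaks without H3K27me3 rose less often than peaks of all 4 lists without it.

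**Figure D4:**
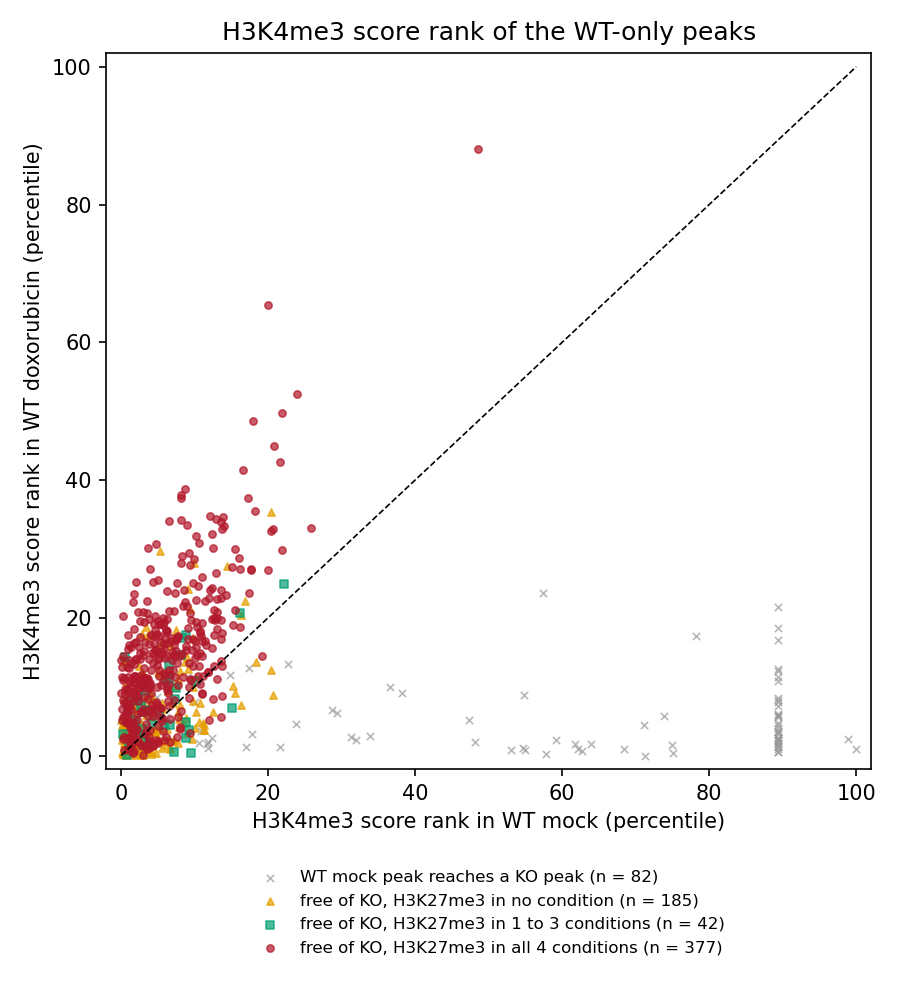
H3K4me3 score rank of each WT-only peak in WT doxorubicin (y axis) and WT mock cells (x axis), as percentiles among the 15118 places in both WT lists, with the dashed line at equal ranks. Peaks with H3K27me3 in all 4 conditions lie mostly above the line (331 of the 377 free-standing ones), and peaks whose WT mock peak reaches a KO peak lie mostly far below it, many at the tied rank of a score of 3100 in WT mock.

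The largest rises of rank were on chromosome 4 from 137949583 (65.5 in WT doxorubicin, 20.02 in WT mock), chromosome 5 from 37259022 (88.1 and 48.5 in those conditions), chromosome 2 from 146909348 (48.6 and 18.0), chromosome 18 from 42553569 (38.7 and 8.72) and chromosome 6 from 67484037 (37.8 and 8.11). The 10 largest rises all had H3K27me3 in the 4 conditions. The 5 largest falls were all flanks without H3K27me3, led by chromosome 11 from 70781953 to 70782505, a 553-bp peak with a score of 94.2 in WT doxorubicin that overlapped a WT mock peak scoring 3230 and lay 25 bp from the nearest KO peak. Of the 82 flanks, 79 ranked lower with doxorubicin, the mock score being that of the larger peak. In width, 293 of the 686 WT-only peaks (42.7%) were wider in WT doxorubicin than in WT mock, against 25.6% of all places in both WT lists. These shares were not matched for width or score. All places had a median width of 2099 bp in WT mock, and the WT-only peaks 1142.5 bp. Of the flanks, which are set apart by their WT mock peak, 2 of 82 were wider. Of the 604 free-standing peaks 291 (48.2%) were, with medians of 1051 bp in WT doxorubicin and 1106 bp in WT mock.

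WT-only peaks were spread over all autosomes and chromosome X, with 1 on unplaced sequence. Chromosome 5 held the most, 60 of its 1038 WT doxorubicin peaks (5.78%, 4.44 to 7.38), against 4.16% of the whole list. Chromosome 2 held 57, chromosome 7 held 54, and chromosomes 4 and 11 held 51 each. Chromosome X had 9 of 502 (1.79%, 0.823 to 3.38) and chromosome 13 had 18 of 705 (2.55%, 1.52 to 4.01). Chromosome X also had few H3K4me3 peaks with H3K27me3 throughout, 16 in all, of which 4 were WT-only. With 20 chromosomes compared, the intervals of chromosomes 5, 13 and X alone left out the share of the whole list.

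**Figure D5:**
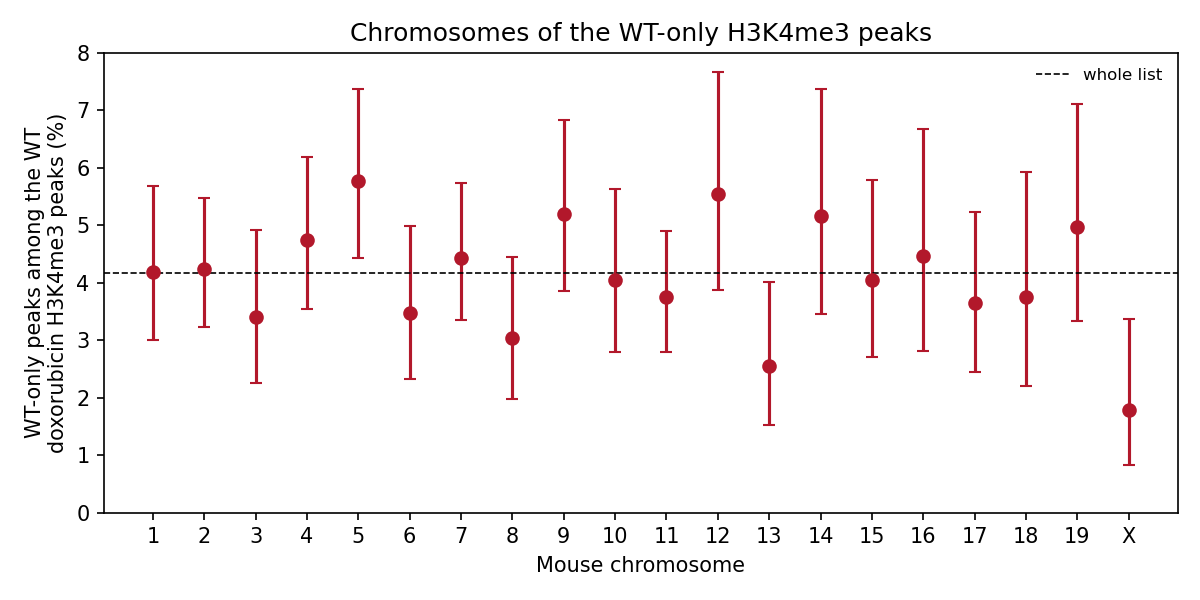
WT-only peaks as a percent of the WT doxorubicin H3K4me3 peaks (y axis) on each mouse chromosome (x axis), with exact 95% binomial intervals, and the share of the whole list (4.16%) as a dashed line. Chromosome 5 lies above the line and chromosomes 13 and X below it, with the other intervals reaching the line.

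Most WT-only peaks had no other within 100 kb. Of the 686, 138 (20.1%, 17.2 to 23.3) lay within 100 kb of another, 11.7% lay within 20 kb and 58.3% within 1 Mb, and the median gap to the nearest one was 624117 bp. With peaks joined within 3 kb, the share within 100 kb was 13.02% (66 of 507). The share was not computed for the whole list or for sets of equal size, so whether it is high is not known. Within 100 kb, the 589 peaks missing in KO mock alone had a share of 15.6% (12.8 to 18.8), the 244 missing in KO doxorubicin alone, a smaller set, 7.38% (4.43 to 11.4), and the 994 peaks of the WT doxorubicin list alone, a larger set, 30.1% (27.2 to 33.04). Chains with steps of at most 100 kb held 2 peaks in 49 cases, 3 in 12 and 4 in 1. The chain of 4 spanned 158077 bp on chromosome 1 from 74840795 to 74998871, where the WT doxorubicin list had 10 H3K4me3 peaks, 3 of them found in all 4 lists. Its WT-only peaks scored 288, 457, 354 and 710 in WT doxorubicin and 118, 282, 80.1 and 101 in WT mock cells, and all 4 had H3K27me3 in every condition and a higher rank with doxorubicin. The KO doxorubicin list lacked a number around all 4 of them, and the KO mock list around all but the first. The shortest chain of 3 spanned 5992 bp on chromosome 5 from 108150106 to 108156097, and its members overlapped the same H3K27me3 peak, 12954 bp wide in KO doxorubicin, 12742 bp in KO mock, 8956 bp in WT doxorubicin and 13126 bp in WT mock cells. Its H3K4me3 scores were 328, 224 and 493 in WT doxorubicin and 257, 101 and 319 in WT mock cells, and both KO lists lacked a number in the stretch. The next chain of 3, on chromosome 12 from 112654640 to 112668792, scored 156, 164 and 259 in WT doxorubicin. Around it the KO doxorubicin list lacked 2 numbers and the KO mock list 1. A single WT mock peak scoring 191 overlapped the first and second, the third scored 168 in WT mock, and the sole H3K27me3 peak there was a WT mock peak scoring 84.2 at the first.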

How the data were processed

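The authors deposited 1 peak list per ChIP library, giving each peak's coordinates, number and score; per the file headers the score is minus 10 times log10 of the p-value. The submitters' processing notes name Bowtie 0.12.7, MACS 1.4.2 and build mm9, with no role given. Coordinates are mm9 and count from 1, on the assumption that deposited starts count from 0. Members and comparisons were chosen with earlier results of these data known. H3K4me3 peaks were compared by overlap of at least 1 bp, and a place with several overlapping peaks took the highest score and the largest width. Intervals are exact (Clopper-Pearson) 95% binomial intervals, and neighbouring peaks are not independent. Limits beside a count of 0 are 3 counts of the total. Named places were the 10 highest-scoring and the 5 widest WT-only peaks, the 5 largest rises and falls of rank, the 3 longest chains (the shortest span first among ties), the 5 with the highest H3K27me3 score, the 5 highest-scoring without H3K27me3, and 3 peaks on either side of the border of the definition. The split into flanks and free-standing peaks and the reading of peak numbers were added after the data had been seen. Gene groups and cell type markers, also planned, were not analysed here, for want of an annotation on the build of the files. The overlap, absence and numbering rules were tested on simulated lists. Values were computed with scipy 1.17.1, pandas 2.3.3 and numpy 2.4.6 under Python 3.11.15, and plotted with matplotlib 3.10.9.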

Additional observations from a re-analysis of the deposited data

How the results depend on the processing

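Of 57 values under alternative settings, 27 stayed within the interval of the reported share or within 1.5 times the reported count. With absence from KO mock alone both H3K27me3 shares were under 50%, and at a distance of 1 Mb the share near another peak was over 50%, on the other side from the reported values. The cause of the movements below was not tested. The number of WT-only peaks (686) was 413 with equal numbers of top peaks (14326 per list), 1275 when absence was asked of KO mock alone, and 272 without peaks beside a missing KO peak number. The share at H3K27me3 in WT doxorubicin (59.5%) was 66.9% with peaks joined within 3 kb, 72.9% with equal numbers, 64.7% with members from the WT mock list, 63.5% with absence from KO doxorubicin alone, 43.3% with absence from KO mock alone, 65.6% without flanks and 54.8% without peaks beside a missing number. The share with H3K27me3 in all 4 conditions (56.7%) was 63.5% joined, 70.2% with equal numbers, 61.6% from the WT mock list, 60.97% with absence from KO doxorubicin alone, 40.1% with absence from KO mock alone and 62.4% without flanks. The share with a higher rank in WT doxorubicin (68.5%) was 72.8% with sharing within 1 kb, 75.5% with equal numbers, 63.6% with absence from KO mock alone, 75.5% by rank within each whole list, 57.6% by rank among the WT-only peaks alone and 77.3% without flanks. The share within 100 kb of another (20.1%) was 24.2% with an overlap of at least 50%, 13.02% joined, 13.6% with equal numbers, 26.5% with absence from KO doxorubicin alone, 28.2% with absence from KO mock alone, 11.8% without peaks beside a missing number, 11.7% at a distance of 20 kb and 58.3% at 1 Mb. The settings without flanks and without peaks beside a missing number were chosen after seeing the data. No paired analysis was possible because each mark and condition has 1 library. Read depth is unknown, so that weak peaks near the score floor cannot be judged.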
